A study of Mus musculus with 2 samples.

Results

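The genes of interferon gamma signalling and of its induction by interleukin 12 (IL-12) and interleukin 18 (IL-18) were measured in CD8+CD122+ and CD8+CD122- T cells. They comprised the cytokine gene Ifng, the genes of 6 receptor chains (Ifngr1, Ifngr2, Il12rb1, Il12rb2, Il18r1 and Il18rap) and the transcription factor gene Stat4. Their 8 symbols matched 13 of the 41174 probes that are not controls, by the gene name printed in either of the 2 scanner files. The probes were chosen by name and not by their values. Of these 13 probes, 12 were tested, among 30794 in all, the condition being a signal well above background in 1 population or both on each array. The genes stand for 8 of 27775 gene names on the arrays.

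Both populations came from spleens of C57BL/6 mice by cell sorting. CD122 is a chain that the receptors for IL-2 and IL-15 share, and the series calls the CD8+CD122+ cells regulatory. Amplified messenger RNA of CD8+CD122+ cells was hybridised together with that of CD8+CD122- cells on each of 2 Agilent 2-colour arrays. On array 1 the CD8+CD122+ RNA was labelled with Cy5 and the CD8+CD122- RNA with Cy3, and on array 2, named a second trial, the dyes were exchanged. The labels give no age, sex or number of animals and do not say whether the second trial used new mice. With n = 2 arrays, the precision is limited by their number, and p-values measure only the spread between these arrays.

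Interferon gamma is the main effector cytokine of type 1 immunity and is made by T cells and natural killer cells. It binds a receptor of IFNGR1, which holds the ligand, and IFNGR2, which signals with it through the Janus kinases JAK1 and JAK2. IL-12, through its receptor chains and STAT4, and IL-18, through its receptor chains and the adaptor MyD88, act together to induce Ifng. Memory CD8 T cells carry both receptors and can make interferon gamma on these cytokines without antigen.

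The sorted marker itself checked the labels. Il2rb, the gene of CD122, had log2 ratios of CD8+CD122+ over CD8+CD122- of 2.60 on array 1 and 2.34 on array 2, a mean of 2.47 ± 0.18 (SD, n = 2 arrays, here and below). Cd8a (-0.31 and -0.91) and Cd8b1 (-0.48 and -0.86), the chains of CD8, were negative on both arrays and under 2-fold. The arrays themselves differed. On probe A_51_P145453, Xist, the RNA of the inactive X chromosome, had spot signals of 92.9 in CD8+CD122+ and 104 in CD8+CD122- cells on array 1, and of 1440 and 1191 in the same order on array 2. The arrays differed less on another tested Xist probe (A_52_P300376), with 289 and 236 on array 1 and 526 and 762 on array 2. Xist probes not well above background on array 1 were not tested. They were A_52_P362360 (69.1 and 86.2 on array 1, 410 and 388 on array 2) and A_52_P113537 (65.3 and 83.7, 121 and 138). Genes of the Y chromosome (Ddx3y, Eif2s3y and Kdm5d) gave signals above background in all 4 samples of RNA.

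Ifng and Ifngr1 were higher in CD8+CD122+ cells by more than 2-fold on both arrays, Ifngr2, the gene of the other receptor chain, lay on the lower side on both of its probes that map to it, and Il18r1 had ratios of 4.11-fold on array 1 and 1.91-fold on array 2. The IL-12 receptor genes and Stat4 had normalised ratios above 1 on both arrays and under 2-fold. The ratio of Il12rb2 rested on low signals, and that of Stat4 fell below 1 on array 2 with median centring. Il18rap, not well above background in CD8+CD122- cells, has only a lower bound. By size alone, that is 2-fold or more on each array in the same direction, 3 of the 12 tested member probes were higher (2 of Ifng and 1 of Ifngr1) and 0 were lower. Over all tested probes 78 were higher by this rule (0.253%) and 25 lower (0.0812%). Counted by gene with its brightest probe, 2 of the 8 members were higher and 0 lower, against 68 (0.310%) and 23 (0.105%) of 21959 genes. The rule of size carries no p-value. The fit across all probes (limma, Benjamini-Hochberg adjustment) called 0 probes in either direction at an adjusted p under 0.05 (0%), with 808 higher and 1076 lower at an unadjusted p under 0.05, and it also called 0 with an intensity trend or with robust variances. Its adjusted p was 0.277 at the lowest and 0.885 at the highest among the member probes, and 0.146 at the lowest over all probes.

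On 11 member probes CD8+CD122+ and CD8+CD122- cells alike gave signals well above background on each array. Of these, 8 were positive on both arrays and 3 negative on both. Each side counts 1 probe that the array file places on another chromosome than the member gene it is named for. Over all tested probes, a looser set that needed such signals in only 1 population, 27.8% were positive on both arrays and 25.5% negative on both. The median log2 ratio of these 11 probes was 0.52 (0.69 on array 1 and 0.32 on array 2), beside 0.00 over all tested probes. The 12th tested probe, of Il18rap, passed the filter through CD8+CD122+ cells alone and is left out of this count. In RNA of sorted bulk populations, more cells that express a gene and more RNA per cell cannot be told apart, and this holds for every ratio given here.

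**Figure D1:**
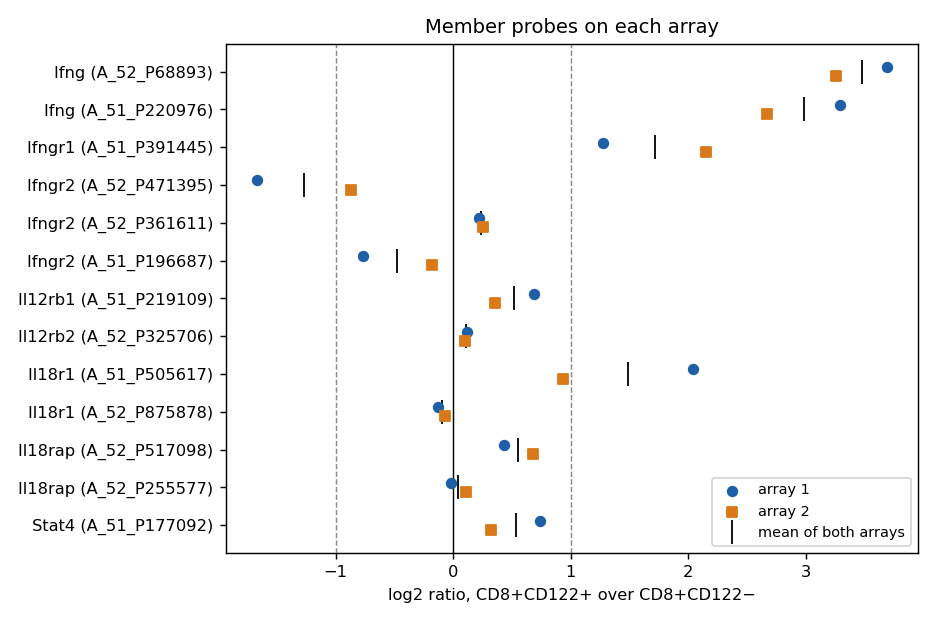
Log2 ratio of CD8+CD122+ over CD8+CD122- (x axis) of each of the 13 member probes (y axis) on array 1 (circles) and array 2 (squares), with the mean of both arrays as a bar; dashed lines mark 2-fold. Both Ifng probes lie between 2.67 and 3.69, Ifngr1 at 1.28 and 2.15, and the brighter Ifngr2 probe at -1.67 and -0.87.

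The promoters are shown for the ligand gene and the 2 chains of its receptor, because the 2 chains had ratios of opposite sign. Each is the stretch of 250 bases before the transcription start, from RefSeq on GRCm38.p6, on the plus strand, with any match to the motifs searched in capitals. The motifs were TTCNNNGAA (the gamma-activated sequence, bound by STAT dimers), AGGTGT (a T-box motif), TGTGGT (Runx), TGACGTCA (the cyclic AMP response element) and TGANTCA (AP-1), on both strands. The Ifng window is chr10:118440796-118441045, that of Ifngr1 chr10:19591699-19591948 and that of Ifngr2 chr16:91546809-91547058.
Ifng: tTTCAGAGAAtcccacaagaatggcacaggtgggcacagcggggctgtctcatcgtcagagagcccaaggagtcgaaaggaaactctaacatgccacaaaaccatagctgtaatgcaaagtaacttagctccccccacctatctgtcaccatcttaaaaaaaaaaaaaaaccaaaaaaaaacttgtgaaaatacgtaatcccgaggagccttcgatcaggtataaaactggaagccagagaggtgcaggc
Ifngr1: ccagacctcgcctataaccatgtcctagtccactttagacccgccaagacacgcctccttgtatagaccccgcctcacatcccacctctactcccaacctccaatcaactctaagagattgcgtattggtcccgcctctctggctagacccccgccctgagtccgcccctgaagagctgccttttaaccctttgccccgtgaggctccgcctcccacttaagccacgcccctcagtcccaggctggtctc
Ifngr2: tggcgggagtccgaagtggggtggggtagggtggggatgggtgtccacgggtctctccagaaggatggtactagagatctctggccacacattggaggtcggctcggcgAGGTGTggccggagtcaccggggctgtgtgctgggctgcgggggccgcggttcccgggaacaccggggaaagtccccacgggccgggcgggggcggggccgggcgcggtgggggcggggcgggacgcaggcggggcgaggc
The Ifng window held 1 gamma-activated sequence, TTCAGAGAA, from 249 to 241 bases before the start, and none of the other 4 motifs. The Ifngr2 window held 1 T-box motif, from 141 to 136 bases before the start, and the Ifngr1 window held none of the 5. Of all 32851 such windows, 7.02% held the gamma-activated sequence and 11.83% the T-box motif, beside 14.05% for Runx, 6.75% for AP-1 and 1.55% for the cyclic AMP response element. The 3 windows also differed in base composition, with 45.2% G and C for Ifng, 59.2% for Ifngr1 and 74.0% for Ifngr2, beside a median of 52.4% over all windows. RefSeq windows were found for 7 of the 8 members, and 4 of their 10 windows held a motif, the other 2 being a window of Il12rb2 and one of Il18r1, each with the gamma-activated sequence and no other. No matches overlapped. Such matches describe letters in these windows.

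Ifng encodes the cytokine itself. Its brighter probe (A_52_P68893) gave a spot signal of 2956 in CD8+CD122+ cells and 198 in CD8+CD122- cells on array 1. On array 2 it gave 1077 in CD8+CD122+ cells and 186 in CD8+CD122- cells. The signal in CD8+CD122+ cells was thus the higher one in both dyes. The normalised log2 ratios were 3.69 and 3.26, a mean of 3.47 ± 0.31 (11.1-fold, limma adjusted p 0.277), which placed the probe 11th from the top among 30794.

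The other Ifng probe (A_51_P220976), which carries the Ifng name in the file of array 2 alone, gave 1825 in CD8+CD122+ cells and 167 in CD8+CD122- cells on array 1. On array 2 it gave 854 in CD8+CD122+ cells and 213 in CD8+CD122- cells. Its log2 ratios were 3.29 and 2.67, a mean of 2.98 ± 0.43 (7.90-fold, adjusted p 0.336), and it ranked 14th. Both probes were well above background in CD8+CD122- cells as well, so the ratios rest on measured signals on both sides. Over the ways of processing compared here, the brighter probe kept a mean log2 ratio between 3.25 and 4.03.

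The genes whose pair of ratios lay nearest to that of the brighter Ifng probe were found by the Euclidean distance over the 2 arrays. They were Ccl4 (4.09 and 3.18), the gene of an inflammatory chemokine, and the Ly49 receptor probes that the scanner files name Klra23 (3.33 and 2.97) and Klra22 (3.79 and 3.77). Ctla2b (3.80 and 3.93), the gene of a cysteine protease inhibitor, and Cxcr3 (3.37 and 2.66), which encodes a chemokine receptor of type 1 T cells, followed. Their distances were 0.402, 0.463, 0.520, 0.677 and 0.677. Ly49 genes resemble each other closely, as Ctla2b does Ctla2a, so their probes may take up RNA of several copies.

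Natural killer cells also express Ifng and CD122, and their markers were measured beside it. Of 7 markers of natural killer and natural killer T cells, 3 were tested. By the rule of size 0 passed, beside 0.310% of all genes higher and 0.105% lower. The Ly49 receptor probes given above are not among these markers. Klrb1c, the gene of NK1.1, had log2 ratios of 0.07 and 0.13, and the adaptor genes Fcer1g (0.04 and 0.05) and Tyrobp (0.23 and -0.14) lay near 0. Spot signals of Klrb1c (157 to 199) and Tyrobp (97.6 to 125) were low, so their values near 0 do not show equal expression. The summed spot signal of the 3 markers was 854 in CD8+CD122+ and 705 in CD8+CD122- cells on array 1, and 782 in CD8+CD122+ and 1004 in CD8+CD122- cells on array 2. Most of it came from Fcer1g (584 and 450 on array 1, 487 and 681 on array 2, in the same order). Ncr1, the gene of the natural killer receptor NKp46, was not well above background in either population on either array. Itga2 was not tested either, and Cd244 and Zbtb16 were not matched to a probe.

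Ifngr1 encodes the ligand-binding chain of the interferon gamma receptor, and its single probe (A_51_P391445) carries this symbol in the file of array 2 and the older name Ifngr in that of array 1. Spot signals were 9975 in CD8+CD122+ cells and 2643 in CD8+CD122- cells on array 1. On array 2 they were 16641 in CD8+CD122+ cells and 6118 in CD8+CD122- cells. CD8+CD122+ cells gave the higher signal on both arrays. The log2 ratios were 1.28 and 2.15, a mean of 1.71 ± 0.62 (3.28-fold, adjusted p 0.624), which ranked 44th from the top. With median centring in place of loess the arrays lay closer together, at 1.82 and 1.67.

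Ifngr2 encodes the signalling chain, and 2 of its probes lie on its own chromosome, 16, by the file of array 2. On the brighter one (A_52_P471395), spot signals were 155 in CD8+CD122+ cells and 389 in CD8+CD122- cells on array 1. On array 2 they were 294.5 in CD8+CD122+ cells and 725 in CD8+CD122- cells. CD8+CD122+ cells were the lower ones on both arrays. The log2 ratios were -1.67 and -0.87, a mean of -1.27 ± 0.57 (2.41-fold lower, adjusted p 0.690), the 24th from the bottom of all tested probes, although the ratio on array 2 missed 2-fold. With median centring both arrays passed 2-fold, at -1.45 and -1.20.

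The dimmer Ifngr2 probe (A_51_P196687) gave 77.9 in CD8+CD122+ cells and 132 in CD8+CD122- cells on array 1, and 105 and 115 in the same order on array 2. Its log2 ratios were -0.77 and -0.18 (mean -0.48 ± 0.41, adjusted p 0.841), the same sign as on the brighter probe and smaller. An offset of 50 added before the logarithm shrinks the ratios of dim spots, and without it this probe had a mean of -1.26. A further probe (A_52_P361611) is called Ifngr2 in the file of array 2 alone, which places it on chromosome 11. Named through RefSeq, it is a probe of Zfp652 and not of Ifngr2. It is counted among the member probes by its printed name alone and had log2 ratios of 0.22 and 0.26.

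The 2 chains of the receptor thus lay on opposite sides. With the brighter Ifngr2 probe, the log2 ratio of Ifngr1 exceeded that of Ifngr2 by 2.94 on array 1 and 3.02 on array 2. The mean difference was 2.98 ± 0.06, and over the ways of processing it ran between 2.88 and 3.32. The dimmer Ifngr2 probe (-0.77 and -0.18) gives a smaller difference, and neither the SD nor this range covers the choice of probe. The difference between Ifngr1 and Ifngr2 was given no test of its own.

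**Figure D2:**
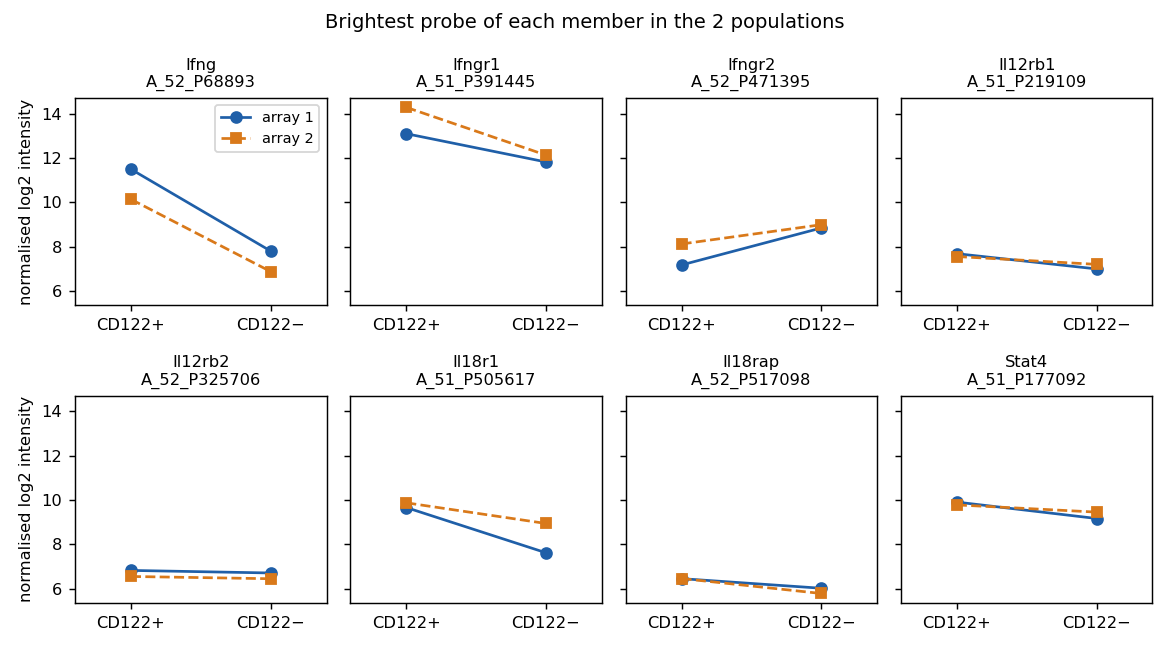
Normalised log2 intensity (y axis) of the brightest probe of each of the 8 members in CD8+CD122+ and CD8+CD122- cells (x axis), joined by a line for each array. Ifng, Ifngr1 and Il18r1 slope down from CD8+CD122+ to CD8+CD122- cells and Ifngr2 slopes up on both arrays; levels of different probes are not comparable.

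The receptor for IL-12 pairs IL-12Rβ1, which is shared with the receptor for interleukin 23, with the signalling chain IL-12Rβ2. Il12rb1 (A_51_P219109) gave spot signals of 212 in CD8+CD122+ cells and 131 in CD8+CD122- cells on array 1. On array 2 it gave 217 and 216, so the populations were level there before normalisation. The log2 ratios after normalisation were 0.69 and 0.35, a mean of 0.52 ± 0.24 (1.43-fold, adjusted p 0.726).

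Il12rb2 (A_52_P325706) lay close to equal in both populations. It gave 121 in CD8+CD122+ and 118 in CD8+CD122- cells on array 1, and 129 and 131 in the same order on array 2. The log2 ratios were 0.12 and 0.10 (mean 0.11 ± 0.01, adjusted p 0.885). All 4 signals were low, in the range where ratios are understated, so a value near 0 does not show equal expression. Without the offset its mean was 0.23.

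IL-18 is bound by IL-18Rα, the product of Il18r1, and signals once the accessory chain encoded by Il18rap joins. Il18r1 (A_51_P505617) gave 820 in CD8+CD122+ cells and 183 in CD8+CD122- cells on array 1. On array 2 it gave 903 in CD8+CD122+ cells and 722 in CD8+CD122- cells. The signal of CD8+CD122+ cells was of similar size on both arrays, while that of CD8+CD122- cells differed between them. The log2 ratios were 2.04 and 0.93, a mean of 1.49 ± 0.78 (2.80-fold, adjusted p 0.730), which ranked 68th from the top.

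Il18r1 therefore stood at the edge of the rule of size. It missed 2-fold on array 2 by a small margin, and with the processed signals of the scanner software (2.46 and 1.03) or without the offset (2.47 and 1.03) it passed on both arrays. With median centring array 2 gave 0.54. A further probe called Il18r1 in the file of array 2 alone (A_52_P875878), which is placed on chromosome 2 and not on the gene's chromosome, 1, had ratios of -0.13 and -0.07.

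Il18rap (A_52_P517098) was well above background on both arrays in CD8+CD122+ cells but on neither in CD8+CD122- cells. It gave 95.5 in CD8+CD122+ and 87.8 in CD8+CD122- cells on array 1, and 124 in CD8+CD122+ and 88.3 in CD8+CD122- cells on array 2. As the mean of both arrays, and with the background correction and loess used here, the CD8+CD122+ level was at least 1.44-fold higher. For CD8+CD122- cells, array by array, this bound takes this spot's own value. Where larger, the dimmest value that counts as well above background is taken instead. The bound does not hold for each array or for every way of processing. The measured ratio was 1.35-fold on array 1 and 1.60-fold on array 2, and its mean was 1.32-fold without background correction. The measured log2 ratios were 0.43 and 0.68 (mean 0.55 ± 0.17, adjusted p 0.656). The size of the ratio depended on the offset more than for any other member probe that was tested, with a mean of 1.95 without it and 2.34 with the processed signals. The second Il18rap probe (A_52_P255577), so named in the file of array 1 alone, was not well above background in either population and was not tested.

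Stat4 encodes the transcription factor that IL-12 activates. Its probe (A_51_P177092) gave 992 in CD8+CD122+ cells and 462 in CD8+CD122- cells on array 1. On array 2 it gave 839 in CD8+CD122+ cells and 1017 in CD8+CD122- cells, so the order of the spot signals turned between the arrays. After normalisation the log2 ratios were 0.74 and 0.32, a mean of 0.53 ± 0.29 (1.45-fold, adjusted p 0.766). The sign on array 2 depended on the normalisation, since median centring gave 1.07 on array 1 and -0.08 on array 2.

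Members that share a receptor or lie side by side in the genome were also set against each other, a description chosen after the values were seen. The log2 ratio of Il12rb1 exceeded that of Il12rb2 by 0.57 on array 1 and 0.25 on array 2. For Il18r1 and Il18rap no such difference is given, since Il18rap has only a bound. Il18r1 and Il18rap are next to each other on chromosome 1 in the RefSeq annotation of GRCm38.p6. The genes on either side of the pair were Il1rl1, the receptor gene for interleukin 33 (0.06 and -0.05, not well above background in CD8+CD122- cells on array 1), and the ion exchanger gene Slc9a4 (-0.17 and 0.10), both near 0. Ifngr2 lies on chromosome 16 between Ifnar1, a receptor chain gene for type I interferons (0.11 and 0.14), and Tmem50b (-0.79 and 0.06).

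**Figure D3:**
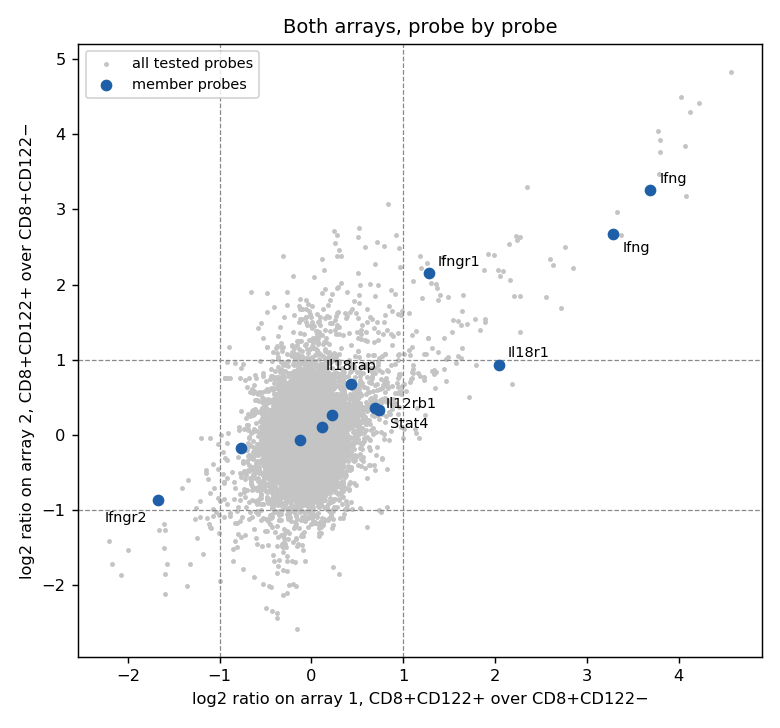
Log2 ratio of CD8+CD122+ over CD8+CD122- on array 1 (x axis) against that on array 2 (y axis) for all 30794 tested probes (grey) and the 12 tested member probes (blue, the larger ones named); dashed lines mark 2-fold. The Ifng probes and Ifngr1 lie beyond 2-fold on both axes, and Il18r1 and Ifngr2 beyond it on array 1 alone.

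Beyond the members, 48 further genes of these pathways were listed by role, and 44 were tested with their brightest probe. Of these, 2 passed the rule of size as higher (Tbx21 and Eomes), 0 were lower and 42 were neither, and limma called 0. The median log2 ratio was 0.03, beside 0.01 over all 21959 genes. Positive on both arrays were 14 genes and negative on both another 14, which is 31.8% each, beside 29.2% and 24.1% of all genes.

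Tbx21 and Eomes encode the T-box factors T-bet and eomesodermin, which drive Ifng in effector and memory T cells. Tbx21 gave spot signals of 2060 in CD8+CD122+ and 342 in CD8+CD122- cells on array 1, and of 1372 in CD8+CD122+ and 827.5 in CD8+CD122- cells on array 2. Its log2 ratios were 2.27 and 1.37 (mean 1.82 ± 0.64). Eomes gave 471 in CD8+CD122+ and 148 in CD8+CD122- cells on array 1, and 274 and 185 in the same order on array 2. Its log2 ratios were 1.63 and 1.02 (mean 1.33 ± 0.43). Both were higher on both arrays in these signals, but neither reached 2-fold on both with median centring (means of 1.79 and 1.34), nor did Eomes without background correction (1.17).

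The cytokines upstream gave no difference of size. Il18 had log2 ratios of -0.01 and 0.05, and Il12b, the gene of the p40 subunit of IL-12, -0.04 on each array. Spot signals of Il18 (120 to 152) and Il12b (140 to 174) were low, so values near 0 do not show equal expression. Il12a, the gene of p35, was not well above background in any population of array 1 and was not tested. Among kinases and adaptors, Jak1 had 0.16 and 0.27, Tyk2 -0.10 and -0.13, and Myd88, the adaptor of IL-18, -0.01 and 0.05. Jak2 had opposite signs, with -0.12 and 0.69. Gadd45b, which encodes a stress-induced activator of MAP kinase signalling, was named after its values were seen. Its brightest probe had 0.72 and 1.49 and passed the rule of size with median centring (1.11 and 1.08). The dimmer Gadd45b probe (A_52_P1197913) had 0.34 and 0.75.

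Genes that interferon gamma induces had a median of -0.45 (-0.27 on array 1 and -0.57 on array 2). Of 11 tested, 0 passed the rule of size, beside 0.310% of all genes higher and 0.105% lower. Negative on both arrays were 7 (63.6%) and positive on both 2 (18.2%), beside 24.1% and 29.2% of all genes. The lowest were the interferon-inducible GTPase genes Iigp1 (-0.53 and -1.99) and Igtp (-0.83 and -1.41), named after their values were seen. Iigp1 was not well above background in CD8+CD122+ cells on array 1 (spot signal 74.3 in CD8+CD122+ and 113 in CD8+CD122- cells), so its ratio there is not a measured fold. The highest was Cxcl10, the gene of a chemokine ligand of CXCR3, at 0.46 and 1.78, which passed the rule of size with the processed signals (1.04 and 2.65). Cxcl9, the gene of another such ligand, was not well above background on array 1 and was not tested. Several of these ratios were larger on array 2, the array with the higher Xist signal, and the part of that difference between arrays in these values was not tested.

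The 4 feedback inhibitors of cytokine signalling had a median of 0.62, and 3 were positive on both arrays (75%, beside 29.2% of all genes). Socs1, a suppressor of JAK signalling induced by interferon gamma, had 0.92 and 0.18. Socs3 (0.72 and 0.93), a like suppressor, and the phosphatase gene Ptpn2 (0.61 and 0.77) were named after their values were seen. None reached 2-fold on both arrays. Among transcription factors, Irf1, which interferons induce, had -0.19 and 0.32.

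**Figure D4:**
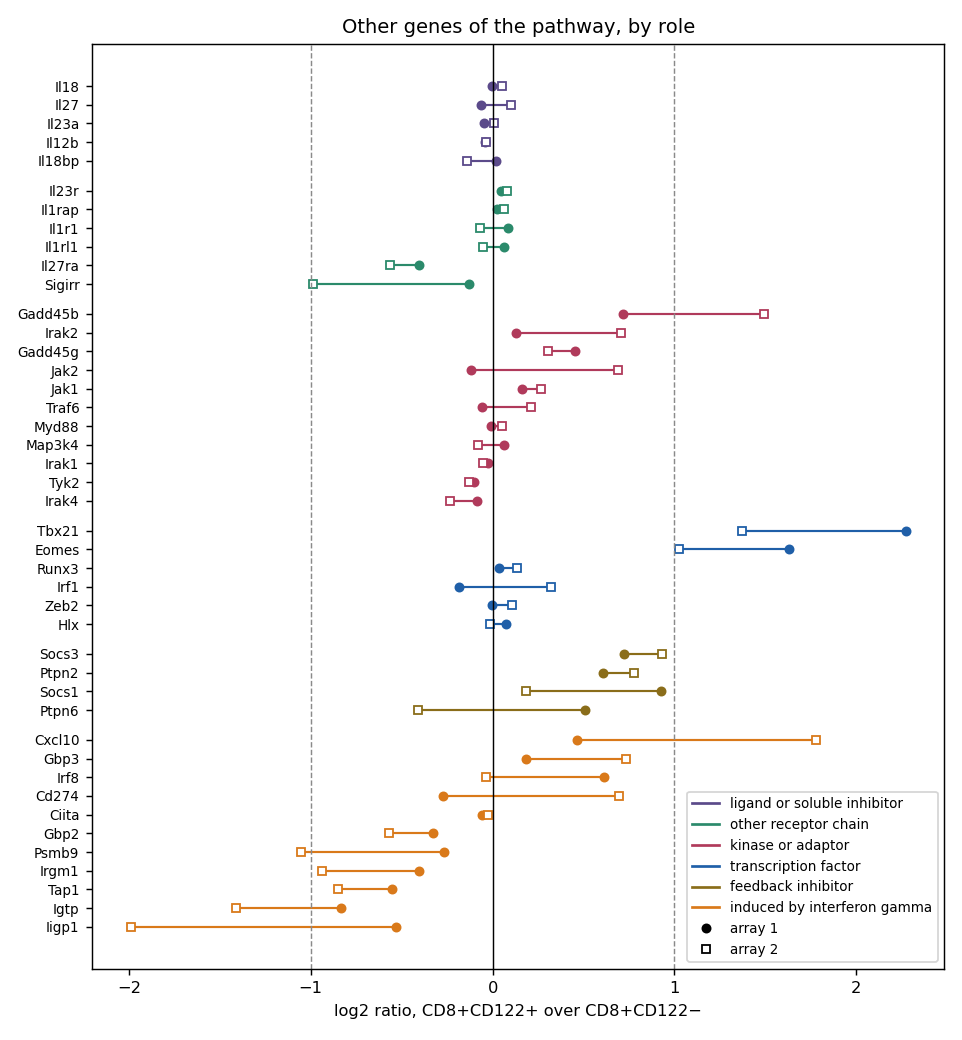
Log2 ratio of CD8+CD122+ over CD8+CD122- (x axis) of 43 of the 44 tested pathway genes (y axis), coloured by role, on array 1 (filled circles) and array 2 (open squares), joined by a line; dashed lines mark 2-fold. Tbx21 and Eomes lie beyond 2-fold on both arrays. Of the 11 genes induced by interferon gamma 7 lie below 0 on both, beside 24.1% of all genes.

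The members differed in how far their values moved with the processing. Ifngr1 had means between 1.71 and 1.75 over the 5 ways that change the signals or their normalisation. The dim probes of Ifngr2 and Il18rap moved most. With the processed signals or without the offset 5 member probes were 2-fold higher on both arrays, the Ifng and Ifngr1 probes together with Il18r1 and Il18rap, the value of Il18rap resting on a CD8+CD122- signal not well above background. Over all probes the same 2 settings gave 199 and 182 higher ones.

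**Figure D5:**
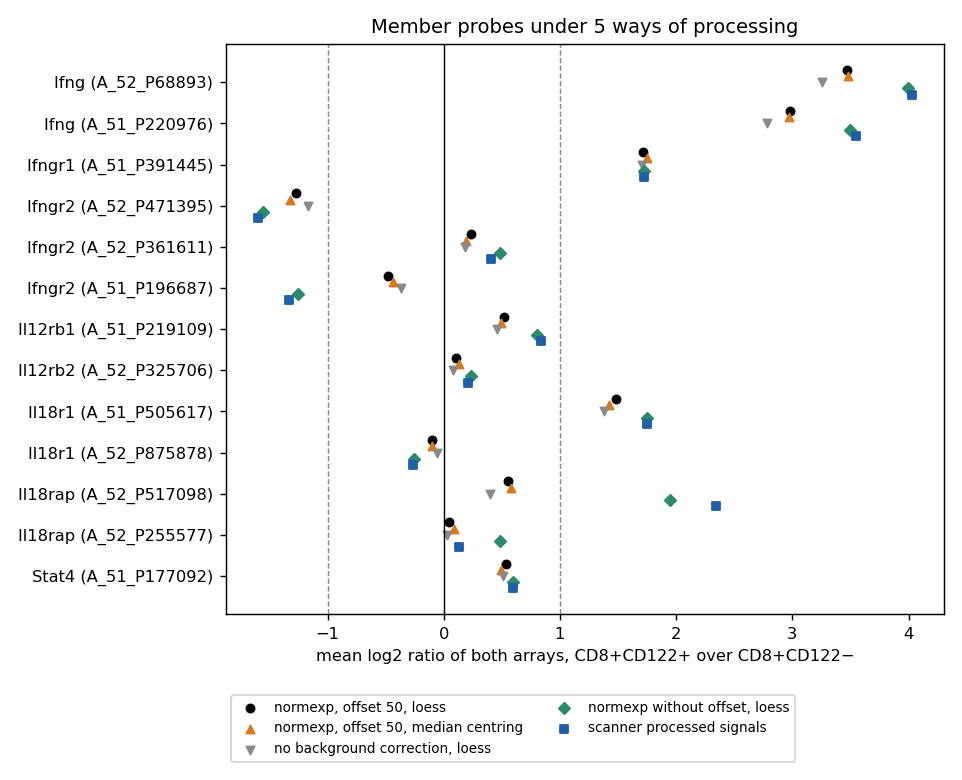
Mean log2 ratio of both arrays, CD8+CD122+ over CD8+CD122- (x axis), of the 13 member probes (y axis) under 5 ways of processing (markers); dashed lines mark 2-fold. Ifngr1 stays between 1.71 and 1.75, while the tested Il18rap probe (A_52_P517098) runs between 0.40 and 2.34.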

How the data were processed

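The 2 scanner files, 1 per array, and a value table were used. Per the file headers, the scanner files give linear intensity values of spots and their background, flags of 0 or 1 per spot and a log10 ratio, made with Feature Extraction A.7.5.1 (array 1) and 8.1.1.1 (array 2). The submitters' processing notes name Agilent Feature Extraction. The deposited value table holds the scanner's log10 ratios as CD8+CD122- over CD8+CD122+, opposite to the direction used here. For array 1 this is the scanner's ratio of Cy5 over Cy3 with its sign reversed, and for array 2 that ratio unchanged. The column medians of the value table are 0. Whether it was centred, and a genome build, are not given in the sources used here.

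Mean spot intensity values as deposited were background-corrected with normexp (offset 50) against the median local background and normalised within arrays by loess, giving control spots no weight, with limma 3.58.1 (R 4.3.3). Of 43790 spots per array 2256 were controls. Outlier spots were left out, saturated spots kept and spots of a probe averaged. Spots well above background made up 76.4% (CD8+CD122+) and 69.5% (CD8+CD122-) on array 1, and 80.2% and 83.4% in the same order on array 2. Probes with a signal well above background in 1 population or both on each array were fitted with limma (lmFit, eBayes) as 1 mean ratio, which leaves 1 residual degree of freedom. Its two-sided p-values were adjusted by Benjamini-Hochberg over these 30794 probes. Folds are on the offset scale and understate dim probes. Spot signals in the text are the mean signals before correction, so they carry differences between dyes. The steps were tested on simulated data.

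Members were taken by the printed gene names, which differ between the files: 7 of the 13 probes carry a member name in both files, 5 in that of array 2 alone and 1 in that of array 1 alone. By the file of array 2, 11 lie on the chromosome of their gene. Other probes were named through RefSeq (GRCm38.p6) by accession (21848), symbol (5774) or synonym (4394), and 9158 kept the file's name. Genes outside the members were represented by their brightest probe. All members, the checks of the sort, the pathway genes past the rule of size, 14 pathway genes whatever their values and the 5 nearest to Ifng were to be named. Members, lists and rules were chosen with earlier results of these data known. The single values of 1 pathway gene, which is counted in the totals of the list, are not reported here. Alternatives covered background correction, normalisation, filters, variance models, the value table, the probe rule and each array alone.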

Additional observations from a re-analysis of the deposited data

How the results depend on the processing

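Every member probe that was tested kept the sign of its mean ratio in all settings run, and the Ifng and Ifngr1 probes stayed at least 2-fold higher in all of them, each array alone included. With the processed signals, and likewise with the deposited value table, 5 member probes were 2-fold higher, as were 199 probes in all, with 85 lower, 3 pathway genes higher (Tbx21, Eomes and Cxcl10) and 1 lower (Iigp1, not well above background in CD8+CD122+ cells on array 1), and the pathway median was 0.0636. Without the offset 5 member probes and 182 probes in all were higher, 73 lower, 2 pathway genes higher (Tbx21 and Eomes) and 1 lower (Iigp1), and the median was 0.0688. The member probes added in these settings are those of Il18r1 and Il18rap, and Il18rap is set against a signal not well above background. With median centring 1 member probe (Ifngr2) was lower, 16 probes in all were lower, 1 pathway gene was higher (Gadd45b, not Tbx21 or Eomes) and Myd88 turned to -0.0142; the cause was not tested. Without background correction 1 pathway gene (Tbx21) was higher, and with the mean of all probes of a gene 15 genes were lower. With each array alone, 42 to 219 probes were lower, 109 to 336 were higher, 3 to 4 member probes were higher and 0 to 1 lower, and 2 to 4 pathway genes were higher and 0 to 4 lower. The sign differed between the arrays alone for the pathway median (-0.00496 to 0.0281), Il18 (-0.00606 to 0.0501), Irf1 (-0.187 to 0.322), Jak2 (-0.120 to 0.691) and Myd88 (-0.0108 to 0.0514), the negative value being that of array 1. A fit with a dye term was not run, since it would leave 0 residual degrees of freedom, and each array alone gives values with no test. No paired analysis was possible because the arrays form a single group, apart from the pairing of both populations within each array, which the fit of ratios already uses. Signals near background limit Il12rb2, Il18rap and the dimmer Ifngr2 probe.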
